A study of Mus musculus with 12 samples.

Results

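Guidance genes were read in 12 single cultured cardiac progenitor cells (CPCs). The genes were every row of the count table whose symbol names a semaphorin of classes 3 to 7, a plexin, a neuropilin, a Slit, one of the receptors Robo1 to Robo3, an ephrin, a netrin or an Unc5 receptor. This gave 52 of the 21729 genes in the table: 20 semaphorins, 9 plexins, 2 neuropilins, 3 Slits, 3 Robos, 5 A ephrins, 3 B ephrins, 3 netrins and 4 Unc5 receptors. Eph receptors were not among them and were read as a companion list. All 12 cells belonged to 1 group: c-Kit+ cells sorted from the non-myocyte fraction of the hearts of 12-week-old FVB female mice after depletion of blood lineages, and then grown adherent on gelatin for 5 passages. The medium held serum, leukemia inhibitory factor at 10 ng/ml, basic fibroblast growth factor at 10 ng/ml and epidermal growth factor at 20 ng/ml. Hearts were pooled in pairs, and the labels tie no cell to an animal or dish. The cells therefore count as 1 sample, the SD printed after a mean describes only how these 12 cells vary, and no test was made between cells. Freshly isolated cells were not analysed here.

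Guidance proteins were named for steering growing axons, and the same proteins steer migrating cells and growing vessels. Class 3 semaphorins are secreted and bind neuropilins, which have short tails and pass the signal through plexins, whereas semaphorins of classes 4 to 7 are held at the membrane and mostly bind plexins directly. Slits are secreted ligands of Robo receptors, and netrins act through Dcc, Neo1 and the Unc5 receptors. Ephrins are tethered to the cell surface, the A type by a lipid anchor and the B type by a membrane-spanning segment, and they signal between touching cells through Eph receptors. In the heart, Sema3c with neuropilins and Plxnd1 shapes the outflow tract, and Efnb2 with Ephb4 marks arteries and veins.

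Total counts per cell ran from 3453708 in CPC1 to 5690184 in CPC12. A gene without a count could lie at up to 0.527 CPM (counts per 1000000 counts of the cell) in CPC12 and up to 0.869 CPM in CPC1, the level of 3 counts. Reads carried no molecular identifiers, so every such limit and every Poisson interval covers counting error alone. CPC10 stood apart from the other cells. The summed level of 10 endothelial markers was 9810 CPM in CPC10 and 0.629 to 58.5 CPM in the other 11 cells, although Cldn5 and Vwf were at 0 throughout. The sum of 8 fibroblast markers was 189 CPM in CPC10 and 530 to 6275 CPM elsewhere. Of the 189 CPM, 175 CPM came from Pdgfra, for which CPC10 was second to CPC3. CPC3 had the highest sum of 6 haematopoietic markers, 1622 CPM, of which Cd53 alone made 1463 CPM, while Ptprc and Itgam were at 0 in that cell. CPC11 had the highest sum of 6 mural markers, 3726 CPM against 171.7 CPM in the next cell, and Acta2 alone made 3668 CPM of it. Rgs5, Cspg4, Kcnj8 and Myh11 had no count in CPC11, and Pdgfrb (57.6 CPM there) was higher in CPC7 and CPC12. Of 6 cardiomyocyte markers 1 was counted, and their sum was at most 86.6 CPM. A list of 9 neuron and glia markers summed to 0.376 CPM in CPC10 and to between 3.70 and 279.7 CPM in the others, where Tubb3 held most of the mean sum and 1 of the 9 markers averaged at least 10 CPM. Kit, the gene of the receptor used for the sort, had 21 counts in CPC10 and none elsewhere. Transcripts of Y-linked genes were counted in 12 of 12 cells, which goes against the label of female hearts. Where leaving out CPC10 moved a printed mean or median by over 1.5 times, the value over the other 11 cells is given too.

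Every guidance gene falls into 1 of 3 kinds by its counts. A count in at least 1 cell was found for 45 of the 52 genes (86.5%, against 66.6% of all genes in the table), and 7 had none. A count in every cell was found for 8 genes (15.4%, against 35.3% of all genes). The remaining 37 were counted in some cells and not in others. Of 624 gene-by-cell values, 331 held a count (53.0%, against 50.5% over all genes) and 150 reached 10 CPM (24.0%, against 35.9%). At least 10 CPM in 1 or more cells was reached by 27 genes (51.9%, against 49.2% of all genes), and 21 genes averaged 10 CPM or more (40.4%, against 39.1%). The guidance genes thus had a larger share counted somewhere, and smaller shares counted in every cell and at 10 CPM in a given cell, than the table as a whole.

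The 8 genes counted in every cell were Plxnb2, Unc5b, Efnb2, Nrp1, Plxna1, Nrp2, Efna5 and Efnb1. Without CPC10 the number was 10, with Slit2 and Sema3d added. Leaving out a cell cannot lower such a number, and the share of all genes without CPC10 was not computed. The 7 genes without a count were Sema4d, Sema4g, Sema5b, Plxnb3, Ntn5, Unc5a and Unc5d. Across cells the number of guidance genes with a count had a median of 28, with the most in CPC6 (36) and the fewest in CPC10. Of all genes in the table, 10022 to 10181 were counted in CPC7, CPC8, CPC10, CPC11 and CPC12, against 11216 to 11950 in the other cells. The former cells also had fewer guidance genes with a count, 17 to 26 against 27 to 36. CPC10 held counts for 17 of the 45 counted genes (37.8%), against 69.5% of all counted genes. The number at 10 CPM or more varied less, from 10 to 16. CPC10 thus had the fewest guidance genes with a count and 13 at 10 CPM or more.

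**Figure D1:**
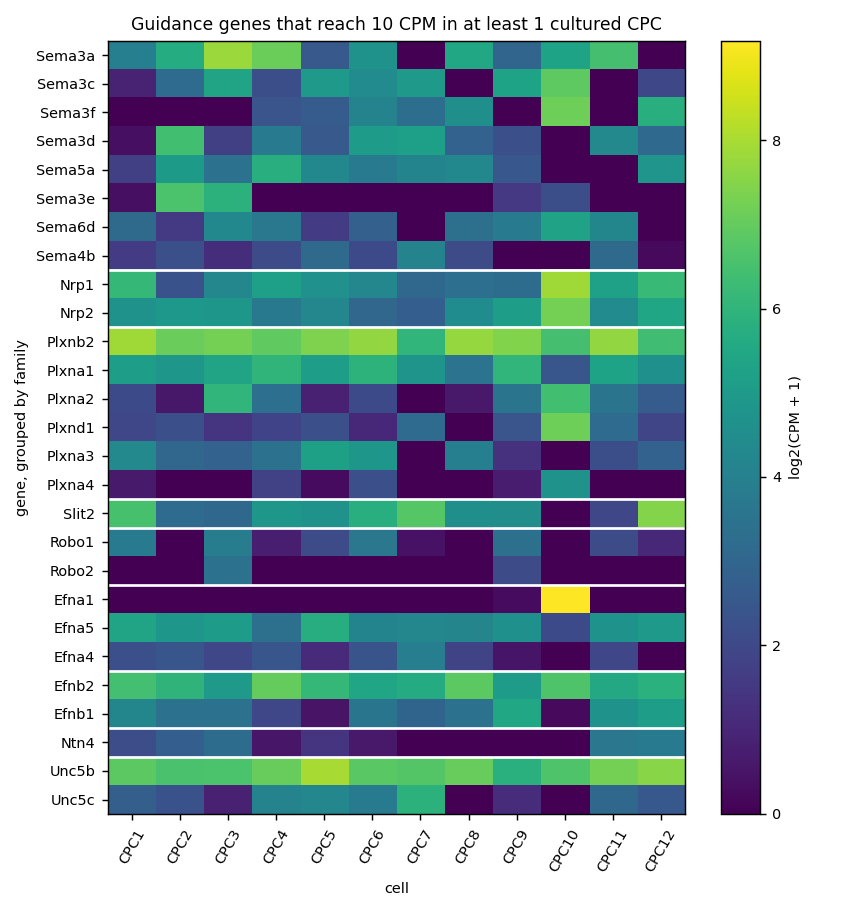
Level of each of the 27 guidance genes that reached 10 CPM, as log2(CPM + 1) by colour, with 1 row per gene grouped by family (white lines) and 1 column per cell. Plxnb2, Unc5b and Efnb2 were at 10 CPM or more in all 12 cells, while Efna1 was bright in CPC10 alone.

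Promoters are shown because the silent and the ubiquitous genes can be compared there in a feature that the choice of genes did not use. Cytosines before guanines (the letters CG, the same on both strands) are dense in many promoters of widely expressed genes. RefSeq windows on GRCm38.p6, the build that mm10 names, covered 250 bases before to 50 bases after the start site, and 40 of the 52 genes had a window whose start lay within 2000 bases of the gene's start in GENCODE vM21. The median number of CG in a window was 35 for the 7 genes with a window that were counted in every cell (range 14 to 38), 23 for the 28 counted in 1 to 11 cells (range 4 to 42), and 27 for the 5 that had no count (range 3 to 37). Over all 14411 genes with a window the medians were 23 for genes counted in every cell, 15 for those counted in 1 to 11 cells and 3 for genes with no count. Windows with at least 10 CG made up 60% of those of the guidance genes without a count and 23.2% of those of all genes without a count. The 250 bases before the start site are printed for 5 genes, 5′ to 3′ on the gene's strand, with each CG in capitals. Unc5b (chr10:60831582-60831831, minus strand, 27 CG) and Efnb2 (chr8:8661243-8661492, minus strand, 27 CG) were counted in every cell. Plxnd1 (chr6:115995006-115995255, minus strand, 16 CG) was high in CPC10. Unc5a (chr13:54949161-54949410, plus strand, 25 CG) had no count, and Sema4a (chr3:88461183-88461432, minus strand, 2 CG) reached at most 15 counts.
Unc5b: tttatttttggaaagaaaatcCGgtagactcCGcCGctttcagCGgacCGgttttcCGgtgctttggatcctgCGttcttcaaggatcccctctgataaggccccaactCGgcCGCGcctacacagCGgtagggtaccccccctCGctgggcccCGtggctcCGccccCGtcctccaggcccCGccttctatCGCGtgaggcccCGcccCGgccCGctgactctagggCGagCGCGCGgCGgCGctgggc
Efnb2: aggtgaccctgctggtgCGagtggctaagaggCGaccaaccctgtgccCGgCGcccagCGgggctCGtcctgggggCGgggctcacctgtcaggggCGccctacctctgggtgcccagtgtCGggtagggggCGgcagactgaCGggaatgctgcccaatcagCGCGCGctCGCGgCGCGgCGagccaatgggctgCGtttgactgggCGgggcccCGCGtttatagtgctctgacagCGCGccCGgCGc
Plxnd1: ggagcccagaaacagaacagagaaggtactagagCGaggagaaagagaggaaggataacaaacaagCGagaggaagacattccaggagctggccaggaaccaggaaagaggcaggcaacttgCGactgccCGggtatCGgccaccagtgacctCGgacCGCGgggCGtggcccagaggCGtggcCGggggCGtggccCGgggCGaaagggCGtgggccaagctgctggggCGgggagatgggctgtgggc
Unc5a: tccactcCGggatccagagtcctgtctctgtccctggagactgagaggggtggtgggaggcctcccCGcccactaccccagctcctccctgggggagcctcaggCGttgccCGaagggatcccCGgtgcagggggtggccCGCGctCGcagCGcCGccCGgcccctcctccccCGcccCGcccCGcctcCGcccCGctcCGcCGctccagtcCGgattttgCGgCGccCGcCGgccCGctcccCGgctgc
Sema4a: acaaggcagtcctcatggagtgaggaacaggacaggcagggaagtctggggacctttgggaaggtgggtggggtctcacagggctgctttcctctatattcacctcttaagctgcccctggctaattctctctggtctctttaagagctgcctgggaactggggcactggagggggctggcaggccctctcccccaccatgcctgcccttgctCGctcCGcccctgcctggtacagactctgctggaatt
Unc5a and Unc5b, which belong to the same receptor family and had 0 and 12 cells with a count, differed little in CG, with 25 and 27 in these stretches.

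Levels of different genes were compared per length, as counts per base of exon scaled to 1000000 in each cell (TPM). Unc5b (57.1 ± 23.2 TPM, SD, 12 cells) and Plxnb2 (55.3 ± 19.9 TPM) led the genes that were present throughout, and these neighbours in the order overlapped within their spread. Efnb2 followed at 27.7 ± 13 TPM and Efna5 at 16.9 ± 8.85 TPM. Nrp1, Sema3f, Efnb1, Plxna1, Sema3a and Sema3c came next with means between 9.71 and 13.1 TPM, and their spreads overlapped. Without CPC10 the mean was 7.82 TPM for Nrp1, 6.20 TPM for Sema3c and 5.68 TPM for Sema3f, and Efnb1 (12.7 TPM), Plxna1 (11.8 TPM) and Sema3a (10.4 TPM) came before them. Efna1 had the highest mean of all, 77.4 TPM, but its median was 0 TPM, and its mean without CPC10 was 0.0311 TPM. Within single cells Plxnb2 was the highest guidance gene in 7 cells, Unc5b in 4 cells and Efna1 in CPC10. Without division by length, 8 of the 10 highest genes stayed among the 10 highest, and 8 also stayed when the length of coding transcripts was used instead of all exons.

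**Figure D2:**
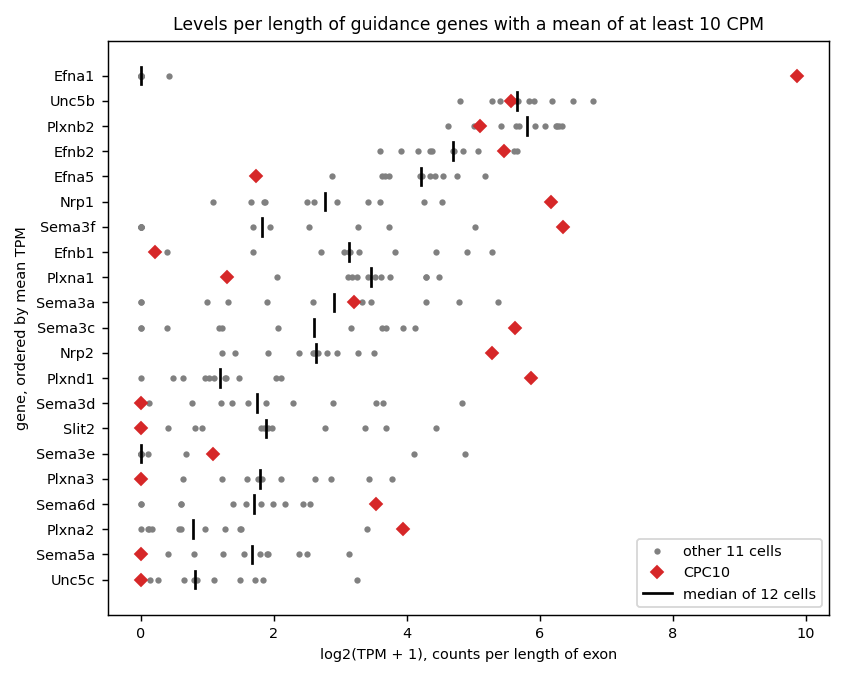
Level per length of the 21 guidance genes that averaged 10 CPM or more, as log2(TPM + 1) on the horizontal axis, with the genes ordered by mean TPM. Each grey point is 1 of the 11 cells other than CPC10, the red diamond is CPC10 and the black line is the median of 12 cells; Unc5b and Plxnb2 have narrow rows far from 0.

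Plexins are the receptors that carry semaphorin signals into the cell. Plxnb2 (chromosome 15, 89155549 to 89180788, mm10), the receptor for several class 4 semaphorins, was lowest in CPC7 at 65.4 CPM, had a median of 161 CPM and was highest in CPC1 at 235 CPM. It was the highest plexin per length in 11 of 12 cells. Plxna1, the plexin bound by Sema6d and shared with neuropilins, had a median of 33.9 CPM and a range of 4.51 CPM in CPC10 to 64.8 CPM in CPC9. Of the Plxna1 exon bases, 10.7% lie opposite exons of an antisense gene, and reads of both cannot be told apart there. Plxna3 reached 36.2 CPM in CPC5 and Plxna2 reached 83.7 CPM in CPC10 and 64.6 CPM in CPC3, with a mean of 16.0 CPM over 12 cells and 9.88 CPM without CPC10. In the remaining 10 cells Plxna2 was at 0 to 10.7 CPM. Plxnb1 and Plxnc1 had at most 36 and 14 counts in a cell. Plxnb1 is the plexin bound by Sema4d and Plxnc1 that bound by Sema7a, and neither reached 10 CPM.

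Neuropilins are the docking receptors for class 3 semaphorins and also bind vascular endothelial growth factors. Nrp1 (chromosome 8, 128358604 to 128503363) had its lowest value in CPC2 at 3.95 CPM, a median of 20.9 CPM and its highest value in CPC10 at 236 CPM. Nrp2 (chromosome 1, 62703285 to 62818695) ran from 5.71 CPM in CPC7 over a median of 22.8 CPM to 153 CPM in CPC10. Per length, Nrp1 was the higher of the pair in 8 cells and Nrp2 in 4. Both were counted in every cell, and their sum was 13.3 to 113 CPM outside CPC10 and 389 CPM in it.

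Class 3 semaphorins, the secreted ligands, differed from cell to cell in which gene led. Sema3a (chromosome 5, 13125414 to 13602565), a repellent of axons and of vessel sprouts, had no count in CPC7 and CPC12, a median of 32.0 CPM and its highest values in CPC3 at 220 CPM and CPC4 at 138 CPM. Sema3c (chromosome 5, 17574281 to 17730268) had no count in CPC8 and CPC11 and 118 CPM in CPC10. Its median was 14.3 CPM over 12 cells and 8.15 CPM without CPC10. Sema3d had a median of 7.05 CPM and reached 84.4 CPM in CPC2, with 35.4 CPM in the next cell. Sema3e, the direct ligand of Plxnd1, was at 95.1 CPM in CPC2 and 59.3 CPM in CPC3 and no more than 3.57 CPM anywhere else. Sema3f, a ligand of Nrp2, had counts in 7 cells, with 142 CPM in CPC10 and 54.7 CPM in CPC12. Per length, Sema3a was the leading class 3 gene in 4 cells, Sema3c in 3, Sema3f in 3, and Sema3d and Sema3e in 1 each. In CPC12 Sema3f held 88.9% of the class 3 TPM, and in CPC9 Sema3c held 82.9%. The class 3 sum ranged from 16.5 CPM in CPC1 to 322 CPM in CPC3. Sema3b and Sema3g stayed below 10 CPM, at no more than 29 and 2 counts.

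Membrane-bound semaphorins had a lower sum than class 3 in 11 of 12 cells, with CPC1 the exception (23.2 against 16.5 CPM). The 13 genes of classes 4 to 7 summed to 19.3 to 71.9 CPM per cell, with a median of 32.6 CPM. Sema5a had a median of 14.8 CPM, a highest value of 54.2 CPM in CPC4 and no count in CPC10 and CPC11. Sema6d had a median of 8.78 CPM and a highest value of 38.3 CPM in CPC10. Sema4b reached 16.4 CPM in CPC7. Sema4a, Sema4c, Sema4f, Sema6a, Sema6b, Sema6c and Sema7a were counted in 3 to 9 cells each and never reached 10 CPM, with 47 counts of Sema4c in CPC7 as the highest of them.

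Among ephrins counted in every cell, Efnb2 and Efna5 had the highest means per length. Efnb2 (chromosome 8, 8617434 to 8661242) was lowest in CPC3 at 30.1 CPM, had a median of 59.3 CPM and was highest in CPC4 at 127 CPM. Efnb1 (chromosome X, 99136130 to 99148991), the other B ephrin with sizeable counts, had a median of 9.83 CPM and ran from 0.188 CPM in CPC10 to 43.6 CPM in CPC9. Per length Efnb2 exceeded Efnb1 in 9 cells and Efnb1 exceeded Efnb2 in 3. Efna5 (chromosome 17, 62604184 to 62881317) had a median of 23.9 CPM and a range of 3.19 CPM in CPC10 to 51.1 CPM in CPC5. Efna2 was counted in 9 cells with at most 35 counts, and Efnb3 had 1 count in 1 cell.

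Efna1 had the widest gap of all guidance genes between its highest cell and the next. CPC10 held 3081 counts of Efna1, or 578 CPM (exact 95% Poisson interval 558 to 599 CPM). CPC9 held 1 count and the other 10 cells none. Efna1 (89271733 to 89281142) lies on chromosome 3 beside Efna3 (89313899 to 89322965) and Efna4 (89333390 to 89338028) on the same strand, with 32.8 kb and 10.4 kb between them and no other coding gene in either gap. Efna3 and Efna4 had no count in CPC10. Efna4 was counted in 10 of the other 11 cells, with 14.3 CPM in CPC7 and 4.55 CPM in the next cell, and Efna3 had at most 9 counts. Antisense exons cover 14.1% of Efna3 and 10.5% of Efna4, so their low counts are uncertain.

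Among Slits, Slit2 held nearly all counts, and its receptors were low. Slit2 (chromosome 5, 47983138 to 48307733) had a median of 24.1 CPM, its highest values in CPC12 at 176 CPM and CPC7 at 108 CPM, and no count in CPC10. Slit1 had at most 20 counts and Slit3 at most 2. Of the receptors, Robo1 reached 13.7 CPM in CPC3, 13 CPM in CPC1 and 11.4 CPM in CPC6 and was under 10 CPM elsewhere. Robo2 reached 10.0 CPM in CPC3, and Robo3 had at most 28 counts. Robo4, the Robo of blood vessels, had 22 counts in CPC10 and none in the other cells.

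Unc5b was the highest of the netrin receptors per length (57.1 TPM, against 21.3 ± 16.8 TPM for Neo1), while netrins themselves were low. This order held in 11 of 12 cells, and in CPC9 Neo1 was 2.19 times Unc5b per length. Unc5b (chromosome 10, 60762593 to 60831581), which repels tip cells and axons on binding netrin, was lowest in CPC9 at 56.2 CPM, had a median of 115 CPM and was highest in CPC5 at 249 CPM. It was the highest Unc5 gene per length in 12 of 12 cells. Unc5c had a median of 5.27 CPM and reached 59.0 CPM in CPC7. Ntn1, the main ligand, had counts in 6 cells, with at most 35 counts. Counts of Ntn4, a netrin of basement membranes, came from 8 cells, with 12.8 CPM in CPC12 and 11.4 CPM in CPC11. Neo1, a further netrin receptor, was counted in every cell with a mean of 64.7 ± 48.2 CPM (SD, 12 cells), and Dcc had no count.

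The sum over all 52 guidance genes was 1854 CPM in CPC10 and 561 to 892 CPM in the other 11 cells. Without division by length, A ephrins made up 582 CPM, neuropilins 389 CPM, plexins 343 CPM and semaphorins 341 CPM of the sum in CPC10. These sums do not rank the families. Per length, Efna1 alone held 66.8% of the guidance TPM of CPC10. Outside CPC10, plexins summed to 106 to 309 CPM, Unc5 receptors to 57.4 to 267 CPM and B ephrins to 40.1 to 130 CPM. The values of CPC10 for B ephrins (101 CPM) and Unc5 receptors (99.3 CPM) lay inside these ranges.

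**Figure D3:**
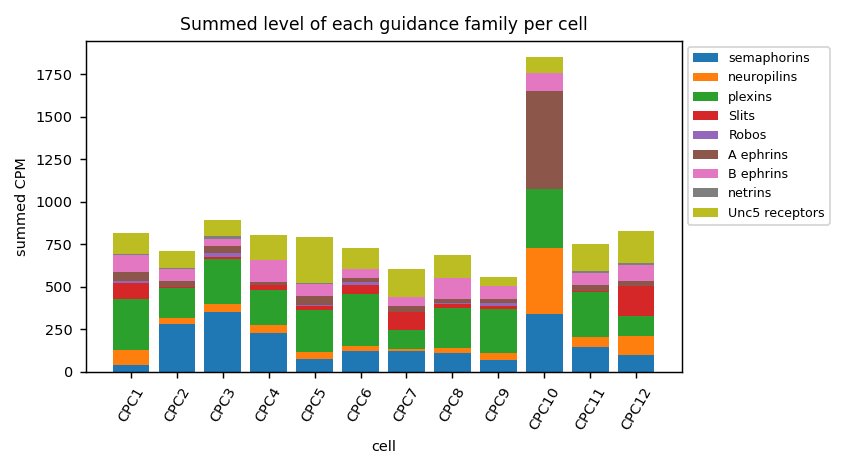
Summed CPM of each guidance family (stacked colours) in each cell on the horizontal axis. The bar of CPC10 reaches 1854 CPM and the tallest of the others, CPC3, reaches 892 CPM.

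CPC10 lay at least 2 times outside the range of the other cells for 11 of the 27 genes that reached 10 CPM. It held the highest value of 9 of the 27 (33.3%, against 13.1% of all genes that reached 10 CPM). It was at least 2 times above the highest other cell for 8 of them (29.6%, against 4.72% of all genes that reached 10 CPM) and at least 2 times below the lowest for 3 (11.1%, against 5.3%). Values under 3 counts were set to 3 counts for this comparison. The 8 genes above were Efna1, Plxnd1, Plxna4, Nrp2, Nrp1, Sema3c, Sema3f and Sema6d. With library sizes rescaled by TMM or by median-of-ratios factors, which both discount a few very high genes, 7 of them stayed and Sema6d, at 2.08 times the next cell, fell out. Efna1, Plxnd1 and Plxna4 reached 10 CPM in CPC10 alone, so they entered the 27 only through the cell in which they were high. Of the 24 genes that reached 10 CPM in another cell, CPC10 was at least 2 times above the others for 5 (20.8%, against 2.71% of all such genes) and at least 2 times below for 3 (12.5%, against 5.43%). These are differences between 1 cell and 11 cells, without a replicate of CPC10.

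Plxnd1 (chromosome 6, 115954811 to 115995005), a semaphorin receptor of vessel lining cells, was at 143 CPM in CPC10 (exact 95% Poisson interval 133 to 154 CPM). The next cell, CPC11, had 8.30 CPM, so the ratio was 17.2, and CPC8 had no count. Plxna4 was at 24.4 CPM in CPC10 (20.4 to 29.0 CPM) and at 3.72 CPM in CPC6, a ratio of 6.56. Nrp2 was 3.75 times, Nrp1 3.25 times, Sema3c 2.91 times and Sema3f 2.60 times the next cell. Without CPC10 the means fell from 44.8 to 27.4 CPM for Nrp1, from 32.9 to 21.9 CPM for Nrp2 and from 15.2 to 3.58 CPM for Plxnd1. The mean of 4 genes dropped under 10 CPM without CPC10, namely Efna1, Plxnd1, Plxna2 and Sema6d.

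The 3 genes below the other cells were Slit2, Efna5 and Plxna1. Slit2 was at least 5.13-fold lower in CPC10, where it had no count, than in the lowest other cell, CPC11, at 2.89 CPM. Efna5 was at 3.19 CPM in CPC10 (exact 95% Poisson interval 1.86 to 5.11 CPM) and at 9.59 CPM in the lowest other cell, CPC4. Plxna1 was at 4.51 CPM in CPC10 (2.89 to 6.70 CPM) and at 10.2 CPM in CPC8. Of the 21 genes with a mean of 5 CPM or more, 5 had no count in CPC10 (23.8%, against 8.69% of all such genes), and these were Slit2, Sema3d, Sema5a, Plxna3 and Unc5c. With the mean taken over the other 11 cells, it was 6 of 20 genes (30%, against 9.28%), with Robo1 added. The endothelial sum of CPC10 stands beside these values, and its part in them was not tested.

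**Figure D4:**
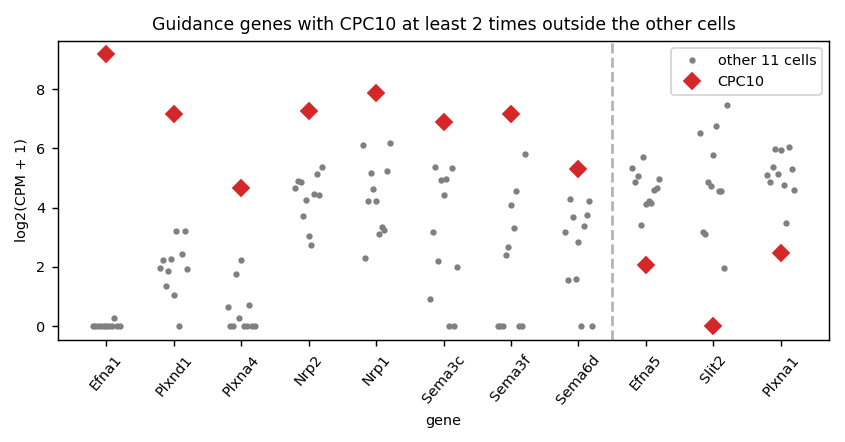
Level as log2(CPM + 1) of the 11 guidance genes for which CPC10 (red diamond) lay at least 2 times outside the other 11 cells (grey points), with the 8 genes above on the left of the dashed line and the 3 below on the right. The widest gap is that of Efna1, at 578 CPM in CPC10 and at most 0.210 CPM elsewhere.

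Among the 21 genes with a mean of 5 CPM or more over all 12 cells, the highest cell was at least 4 times the next for Efna1 and Plxnd1, both in CPC10 (9.52%, against 2.38% of all such genes in any cell and 1.48% in CPC10). Both passed the limit on the mean only through CPC10, so the share is no support. With the mean taken over the other 11 cells, none of 20 genes met this (against 1.58% of all genes). With CPC10 left out altogether, Plxna2 met it through CPC3. Variation between cells was measured as the dispersion residual, computed from CPM as log10 of CV squared (CV is the SD over the mean) less the running median of genes with a like mean. Its median was 0.59 over the 20 guidance genes that could be used and 0 over all 9701 genes, and 0.25 without CPC10. The residual was above 0 for 17 of the 20 genes, against 4829 of all 9701. It was largest for Plxnd1 at 1.20, Sema3e at 1.02, Sema3f at 1.01 and Nrp1 at 0.94, and lowest for Efna5 at -0.14. Single values moved without CPC10, where Plxnd1 fell under the limit on the mean. Nrp1 and Sema3c were then at 0.40 each, Nrp2 went from 0.69 to -0.18, Sema3f was at 0.61 and Sema3e at 1.10. Plxnb2 (-0.04), Plxna1 (0.00), Unc5b (0.00) and Efnb2 (0.01) lay near 0, the median of genes of their level. The secreted ligands Slit2 and Sema3a (0.79 each), Sema3c (0.66) and Sema3d (0.65) exceeded at least 93.1% of all genes, and at least 87.7% without CPC10.

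Ligands and receptors were next read in the same cell, over 63 textbook pairs that also drew on Eph receptors, Dcc and Neo1. Both genes reached 10 CPM in at least 1 cell for 16 pairs, in at least 6 cells for 4 pairs and in every cell for none. Efna5 with Epha2 was met in 9 cells, Efnb2 with Ephb4 in 8, Sema5a with Plxna1 in 8 and Sema3a with Nrp1 in 6. Sema3c with Plxnd1 was met in CPC10 only, because Plxnd1 reached 10 CPM in no other cell. Slit2 reached 10 CPM in 8 cells and Robo1 in 3, and both did so in 2. Efna1 with Epha2 was not met, since Epha2 was at 7.13 CPM in CPC10. A pair here says that both transcripts were counted in 1 cell, and protein was not measured.

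**Figure D5:**
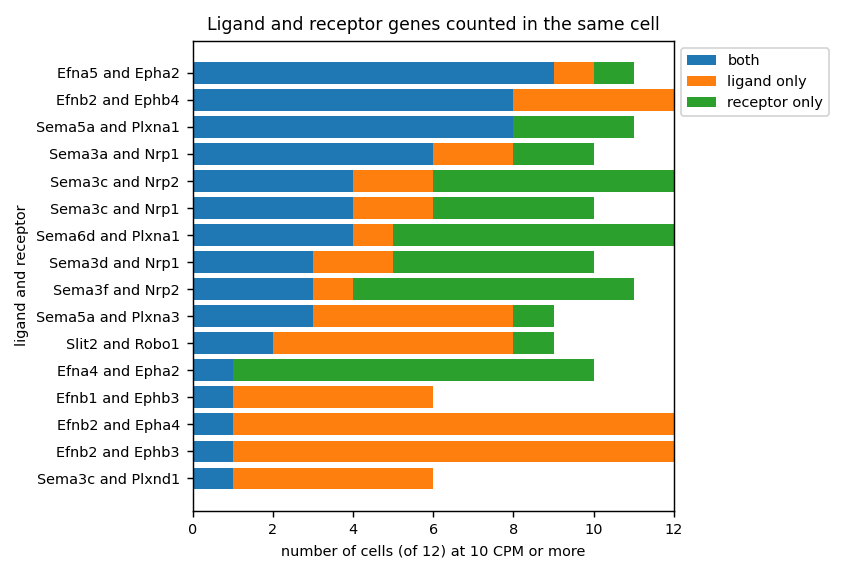
Number of cells (of 12, horizontal axis) in which both genes (blue), the ligand alone (orange) or the receptor alone (green) reached 10 CPM, for the 16 pairs met in at least 1 cell. Efna5 with Epha2 has the longest blue bar, 9 cells.

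Of 14 Eph receptors, which are the partners of the ephrins, 7 had a count in any cell (against 66.6% of all genes) and 1, Epha2, in every cell (against 35.3%). Epha2 averaged 19.9 ± 9.62 CPM (SD, 12 cells). Ephb4, the receptor of Efnb2 on veins, was at 175 CPM in CPC10 and no higher than 38.4 CPM in any other, with a median of 20.9 CPM over all cells. Ephb3 reached 18.5 CPM in CPC12, and Epha4, Epha7 and Ephb6 each reached 10 CPM in 1 cell. Ephb2, a receptor of all 3 B ephrins, had no count.

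Of 20 further receptors and partners, 11 averaged at least 10 CPM (against 39.1% of all genes). Flt4, one of the 11, averaged 11.8 CPM over 12 cells and 4.23 CPM without CPC10. Flt1, a receptor for vascular endothelial growth factor that works beside Nrp1, was at 599 CPM in CPC10 and at most 78.8 CPM elsewhere, and Flt4 was at 94.6 CPM in CPC10 and at 12.0 CPM in the next cell. Kdr had counts in CPC10 only, at 13.1 CPM. The growth factors Vegfa and Vegfc, which bind neuropilins, went the other way. Vegfa was at 16.3 CPM in CPC10 and averaged 160 ± 148 CPM (SD, 12 cells), and Vegfc had no count in CPC10. Of the 13 genes of this list that reached 10 CPM, CPC10 was at least 2 times above the other cells for 3 (against 4.72% of all genes that reached 10 CPM) and at least 2 times below for 2 (against 5.3%). Kdr, one of the 3, reached 10 CPM through CPC10 alone.

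Of 36 signalling proteins that act inside the cell, 35 were counted in some cell (against 66.6% of all genes), 22 in every cell (against 35.3%), and 23 averaged 10 CPM or more (against 39.1%). Dpysl3 and Dpysl2, collapsin response mediators that act after semaphorins, averaged 318 ± 172 CPM and 160 ± 103 CPM (SD, 12 cells). Rras, a small GTPase that plexins switch off, averaged 217 ± 112 CPM, and Gipc1, which binds the neuropilin tail, 158 ± 38.4 CPM. Mical2, of a family of oxidoreductases that act on actin, averaged 139.5 ± 68.6 CPM. The sum over this list ran from 1346 to 2703 CPM, and CPC10 at 2057 CPM lay inside the range of the other cells. Of the 33 genes of the list that reached 10 CPM, CPC10 was at least 2 times above the other cells for 4, namely Fes, Nck2, Vav3 and Crmp1 (against 4.72% of all such genes), and at least 2 times below for 2, Mical3 and Rnd2 (against 5.3%). Vav3 and Crmp1 reached 10 CPM in no cell but CPC10.

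Some guidance genes are neighbours in the genome. Sema3d, Sema3a and Sema3e lie on chromosome 5, with 536.5 kb and no coding gene between the former pair and 422.7 kb and 1 coding gene between the latter. In CPC2 they were at 84.4, 49.9 and 95.1 CPM, in CPC4 at 12.5, 137.8 and 0 CPM, and in CPC7 at 35.4, 0 and 0 CPM. Sema3b and Sema3f lie 72.3 kb apart on chromosome 9 with 3 coding genes between them, and Sema3b had no count in CPC10, where Sema3f was highest. Robo1 and Robo2 lie 845.7 kb apart on chromosome 16 with no coding gene between them. Robo2 was counted in CPC3 and CPC9 alone, and Robo1 in 9 cells.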

How the data were processed

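Libraries of 12 single cultured CPCs were made with the Smart-Seq v4 and Nextera XT kits and sequenced as paired 75-base reads. Per the submitters' processing notes, the authors aligned to mm10 with STAR 2.5.2b, and reads with a unique position were retained. What they deposited is a table of read counts by gene, not normalized. The counting program, annotation and strand rule are not given in the sources used here. Genes with overlaps or close copies are therefore uncertain.

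CPM used the total of each cell. TPM used the union of exons in GENCODE vM21 (GRCm38, the build of mm10), which matched 98.4% of symbols and all 52 guidance genes. Detection meant at least 1 count, expression 10 CPM. Dispersion used genes with a mean of 5 CPM or more and a count in at least 3 cells, and a window of 201 genes. Intervals were exact, at 95%. Folds were computed against at least 3 counts. The fold and dispersion steps were run on simulated counts with known answers, as a check of the code. That run does not give their error rates in these cells. Genes that reached 10 CPM were named with values and the others by counts. Genes, lists, pairs and rules were chosen with earlier results of these data known, among them that CPC10 stands apart. Cells were not treated as replicates, so no p-value is given. Alternatives varied thresholds, depth, scaling (edgeR 4.0.16 TMM, DESeq2 1.42.0 size factors), gene filter, gene length and CPC10. Software was R 4.3.3 and Python 3.11.15 with matplotlib 3.10.9, scipy 1.17.1, pandas 2.3.3 and numpy 2.4.6.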

Additional observations from a re-analysis of the deposited data

How the results depend on the processing

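Of 87 alternatives over 19 results, 75 stayed within the spread of the result and 12 moved past it. For counts the limit was a factor of 1.5, for medians 1 SD over cells and for the dispersion residual 1 SD over genes. The median number of guidance genes detected per cell fell from 28 to 21.5 at 10 counts or more. The number with a mean of at least 10 CPM (21) was 12 at 20 CPM and 11 when the median was used, limits that are harder to reach. The number whose highest cell was at least 4 times the next (2) was 1 when genes counted in fewer than 3 cells were left out, which removes Efna1, and 1 without CPC10. It was 5 at 3 times, and 3 with median-of-ratios factors. CPC10 was at least 4 times above the other cells for 3 genes and at least 4 times below for 1. With the filter on low values set on the other 11 cells only, CPC10 was at least 2 times above for 5 genes in place of 8, and 0 genes had a highest cell at least 4 times the next, since genes high in CPC10 alone no longer pass. Pairs met in at least 1 cell numbered 27 at 5 CPM and 8 at 20 CPM, in place of 16, and 15 without CPC10. That filter and division by the length of coding transcripts were chosen after seeing the data. Under TMM and median-of-ratios factors the median family sums moved by less than 1 SD. For A ephrins, neuropilins, Slits, Robos and netrins the SD exceeded the median (for A ephrins 159 against 32.9 CPM). A fall could not pass the limit there, so staying within it says little. The median dispersion residual also counted as unmoved, at 0.25 without CPC10 in place of 0.59. No paired analysis was possible because there is 1 group. Depth limits genes near 3 counts, and 1 cell carries each result on CPC10.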
